A study of Mus musculus with 6 samples.

Results

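Genes that cells use to copy their DNA and to divide were followed in whole skin of mice that lack JunB in the epidermis. The set is a list of 43 genes taken by symbol, and all 43 are present among the 23951 genes of the deposited expression table. RNA sequencing was done on poly(A) RNA from 3 mice labelled JunB dep and 3 mice labelled JunB +/+, each giving 1 library. In JunB dep mice (JunBΔep in the study) a Cre recombinase under the keratin 5 promoter removes JunB from cells that express this keratin, mainly the basal cells of stratified epithelium and of the hair follicle, so that fibroblasts, leukocytes and muscle in the same piece of skin keep the gene. JunB +/+ mice are the controls. The study describes the JunB dep skin that was sequenced as lesional, whereas the labels do not give its state, so that lesion and genotype cannot be told apart in any difference between the groups. Both groups are C57Bl/6, 6-7 months old, and came from shared litters. Mice of both sexes entered the study, and the labels give neither the sex of these 6 mice nor the body site of the skin. The values are FPKM, fragments per kilobase of transcript scaled to the mapped fragments, a level that can be compared between genes because it is divided by transcript length. Libraries are named by group and by the replicate number in the labels, and values are listed below in the order of replicates 0, 1 and 2.

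A dividing cell passes through a fixed order of steps. Cyclin E with its kinase starts DNA synthesis, the MCM ring loaded at origins unwinds the DNA, and enzymes of nucleotide synthesis feed the fork, while cyclin A and cyclin B with Cdk1 drive the cell into mitosis, where the spindle, the kinetochores and the anaphase-promoting complex (APC/C) separate the chromosomes. Genes of DNA synthesis are largely under E2F factors, whereas many genes of mitosis are switched on later by B-Myb, the MuvB complex and FoxM1 through a short promoter element called the CHR, often together with CCAAT boxes bound by NF-Y. In skin, most dividing cells sit in the basal layer of the epidermis and in the matrix of growing hair follicles. JunB, a subunit of the transcription factor AP-1, is known from other cells to repress the cyclin D1 gene and to activate the gene of the CDK inhibitor p16, Cdkn2a.

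Many promoters of these genes hold the letters of the elements named above, and 8 are printed here as examples, for genes on which the account below turns. RefSeq windows of 250 bases before to 50 bases after the start of transcription, on GRCm38.p6, were found for 35 of the 43 members, as 38 windows since some genes have several starts. No window was found for Ccne2, Mcm4, Gins2, Kif20a, Tpx2, Ccna2, Foxm1 and Aurkb. Both strands were searched for E2F letters, spelled TTCCCGC with the forms TTCGCGC and then TTGGCGC and also TTGCCGC. The CHR was searched as TTTGAA and in the form TTTAAA, the CCAAT box by its own letters, and the AP-1 site as TGAGTCA. Each printed run holds the 120 bases that end at the base before the start, 5′ to 3′ on the strand of the gene, with the letters found on either strand in capitals.

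The 5 mitosis genes come with their positions, and in each the capitals mark CHR letters and CCAAT boxes, of which at least 1 CCAAT box begins 20 to 40 bases before the start of a CHR. In Ccnb1 the capitals of the upstream CCAAT box also hold E2F letters that overlap it.
Ccnb1, chr13:100786487-100786606, minus strand: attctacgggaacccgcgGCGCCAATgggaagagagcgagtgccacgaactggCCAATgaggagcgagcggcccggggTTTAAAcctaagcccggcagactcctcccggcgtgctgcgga
Cdk1, chr10:69352913-69353032, minus strand: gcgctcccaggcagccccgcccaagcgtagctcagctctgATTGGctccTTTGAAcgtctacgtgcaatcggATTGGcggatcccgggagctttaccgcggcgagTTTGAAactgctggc
Top2a, chr11:99024190-99024309, minus strand: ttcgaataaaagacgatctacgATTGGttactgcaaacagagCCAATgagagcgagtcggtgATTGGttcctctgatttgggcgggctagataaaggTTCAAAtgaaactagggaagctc
Cdc20, chr4:118437344-118437463, minus strand: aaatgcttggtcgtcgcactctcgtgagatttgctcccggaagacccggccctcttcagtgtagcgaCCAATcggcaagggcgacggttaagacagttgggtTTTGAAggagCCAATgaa
Ube2c, chr2:164769809-164769928, plus strand: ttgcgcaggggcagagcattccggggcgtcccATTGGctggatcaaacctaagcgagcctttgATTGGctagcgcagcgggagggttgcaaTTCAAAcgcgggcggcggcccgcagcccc

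The 3 replication genes show E2F letters and CCAAT boxes in capitals, and no CHR letters in the printed run.
Mcm6, chr1:128359706-128359825, minus strand: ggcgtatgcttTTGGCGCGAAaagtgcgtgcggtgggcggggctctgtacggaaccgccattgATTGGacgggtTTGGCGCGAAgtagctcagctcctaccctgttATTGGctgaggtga
Rrm1, chr7:102441575-102441694, plus strand: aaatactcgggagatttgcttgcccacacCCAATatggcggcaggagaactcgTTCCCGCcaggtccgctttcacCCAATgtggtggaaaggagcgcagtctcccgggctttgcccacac
Uhrf1, chr17:56303217-56303336, plus strand: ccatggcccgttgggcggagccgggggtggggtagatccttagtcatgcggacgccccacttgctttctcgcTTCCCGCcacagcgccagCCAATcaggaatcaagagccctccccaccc

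E2F letters were present in 61.1% of the 18 windows of replication genes and in 15% of the 20 windows of mitosis genes, against 9.57% of all 32851 windows in the table. CHR letters were present in 90% of the mitosis windows and 38.9% of the replication windows, against 27.6% of all. A CCAAT box was present in 90% and 66.7% of the mitosis and replication windows, against 37.4% of all. A CCAAT box that begins 20 to 40 bases before a CHR was found in 60% of mitosis windows, 5.56% of replication windows and 1.45% of all windows. E2F letters overlapped a CCAAT box, as in Ccnb1, in 0.451% of all windows. AP-1 letters were found in 0 of the 38 member windows and in 5.2% of all windows, which says only that these letters are not in these windows. A match of letters is a description and not a bound site.

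The libraries differ in more than genotype, and several values of that kind stand beside every result here. Junb itself was at 59.3, 72.4 and 56.9 FPKM in the controls. The library labelled JunB dep replicate 0 held 129.6 FPKM, above every control, against 42.8 and 28.0 FPKM in JunB dep replicates 1 and 2. The median log2 fold change of the members, and the values of Cdkn1c, Cdkn2a and Cdkn2c, are therefore also given without this library. Most values of single genes are given only with it. Fibroblasts, leukocytes and muscle in the skin keep Junb, so its level checks the genotype only in part. That library also held 1990 FPKM of Krt13 and 1356 FPKM of Krt4, keratins of oral and other moist epithelium, which were below 1 FPKM in the other 5 libraries, and it listed Krt14, Krt6a, Krt6b and Krt16 at 0 beside 3725 FPKM of Krt5. A 0 in this table can be a failed estimate. Control replicate 0 held 823 FPKM of Alb, made in liver, against at most 18.8 FPKM in the others. Of 10 skeletal muscle markers, 8 were lower in JunB dep at an adjusted p below 0.05 in the limma test described below, against 1.38% of all tested genes. With 1 of controls 0, 1 and 2 or JunB dep replicate 1 left out, or with a block on replicate number or on the number series of the sample names, 0 genes of the whole table were called lower, these 8 included. FPKM summed to between 481078 and 630363 per library. Read numbers are unknown and no counting error is given. No 2 libraries held identical values, and no member was at 0 in any library, the lowest value being 0.384 FPKM for Bub1 in control replicate 1.

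The 43 genes were high and low in much the same libraries, and the JunB dep libraries differed widely among themselves. In whole skin, more dividing cells and more RNA per cell cannot be told apart. In all 43 genes the libraries labelled JunB dep replicates 0 and 1 were both above every control, while JunB dep replicate 2 was below control replicates 0 and 2. Across the 17021 tested genes, both of those libraries were above every control in 19.4%, and JunB dep replicate 2 was below control replicates 0 and 2 in 33.5%. JunB dep replicate 2 lay within the control range for 39 of the 43 genes and below every control for the other 4, Ccne2, Gins2, Pcna and Rrm1. Among the controls, replicates 0 and 2 were above replicate 1 in 42 genes, with Gins2 as the exception, against 37.4% of all tested genes, and replicate 1 was the lowest of all 6 libraries in 39 genes. The FPKM of the members summed to 424, 247 and 461 in the controls and to 888, 1061 and 289 in JunB dep. As a share of all FPKM in a library, that is 0.0849%, 0.0421% and 0.0861% in the controls and 0.141%, 0.221% and 0.0576% in JunB dep.

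**Figure D1:**
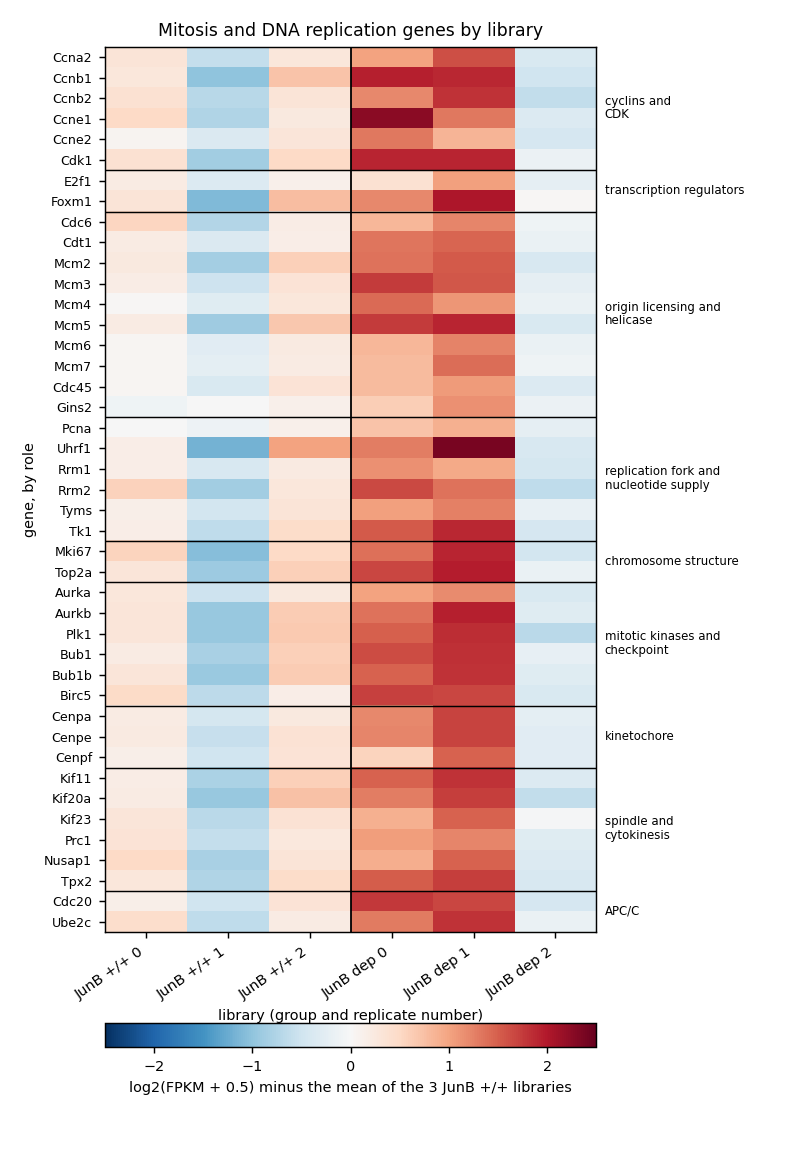
Log2(FPKM + 0.5) of each of the 43 genes in each of the 6 libraries, minus the mean of the 3 JunB +/+ libraries for that gene. Rows are genes grouped by role, columns are libraries, red is above and blue below the control mean. The columns JunB dep 0 and JunB dep 1 are red in all 43 rows, while JunB dep 2 and JunB +/+ 1 are pale or blue in nearly every row.

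The median of the 43 genes, as log2(FPKM + 0.5) minus the control mean, was 0.22, -0.65 and 0.34 in the controls and 1.31, 1.62 and -0.31 in JunB dep. Over all tested genes the same medians stayed between -0.02 and 0.00, so the libraries were level as a whole. The spread was wide in both groups. The highest control exceeded the lowest control by a median of 2.27-fold over the members, from 1.18-fold for Gins2 to 5.21-fold for Uhrf1. Within JunB dep the highest library exceeded the lowest by a median of 4.45-fold, from 2.18-fold for Pcna to 7.90-fold for Ccne1. The range within JunB dep was the wider of the 2 for all members except Foxm1 and Cdc6.

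Tested as groups, 0 members passed. The test was limma on log2(FPKM + 0.5) with an intensity trend. It covered the 17021 genes whose mean reached 0.1 FPKM, all 43 members among them, and p-values were adjusted over all of them by Benjamini-Hochberg, with a threshold of 0.05. Of the 43 members, 0 had an adjusted p below 0.05 in either direction, and the lowest adjusted p was 0.722. Of all tested genes, 0% (0 genes) were called higher in JunB dep and 1.38% (235 genes) lower. At an unadjusted p below 0.05, 0 of the 43 members passed, against 1.43% of all tested genes in the direction of higher levels. The log2 fold change was positive for all 43 members, from 0.39 for E2f1 to 1.22 for Cdk1, with a median of 0.87, whereas 53.4% of all tested genes had a positive value and their median was 0.03. The standard errors ran from 0.31 for Pcna to 0.85 for Uhrf1. In 0 of the 43 members was every JunB dep library above every control, which held for 5.62% of tested genes. In simulated data with this number of libraries, limma did not call changes close in size to those of the members, so the count of 0 does not show that levels were equal. An exact two-sided test by permuting 3 libraries against 3 cannot reach a p under 0.1 for any gene.

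**Figure D2:**
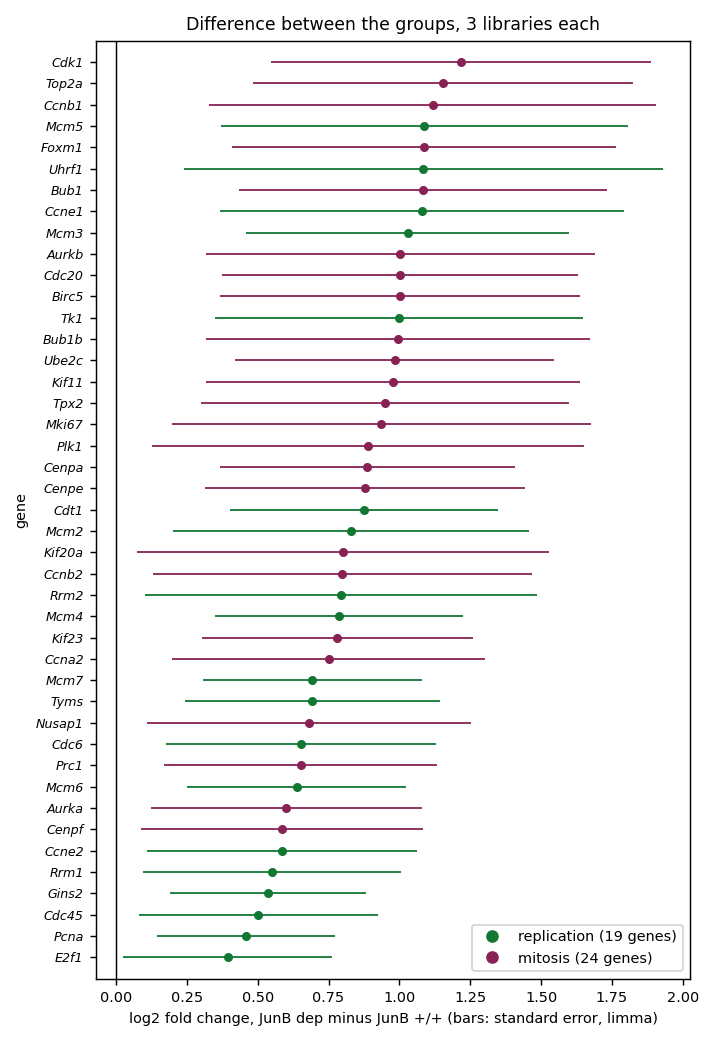
Log2 fold change of each of the 43 genes, JunB dep minus JunB +/+, on the log2(FPKM + 0.5) scale, from limma over 3 libraries per group. Points are estimates and bars are standard errors, green for replication and purple for mitosis genes. All 43 estimates lie above 0, from 0.39 for E2f1 to 1.22 for Cdk1, and the lowest adjusted p among them is 0.722.

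Leaving out single libraries moved the size of the difference but not its sign. The median log2 fold change of the members was 1.51 without JunB dep replicate 2, 0.62 without the library labelled JunB dep replicate 0 and 0.47 without JunB dep replicate 1. Without control replicates 0, 1 and 2 it was 0.99, 0.53 and 1.06. It was 0.78 when the library labelled JunB dep replicate 0 and control replicate 0, which hold high levels of mucosal and of liver genes, were both left out, a choice made after the values were seen. Without JunB dep replicate 2, 37 of the 43 members had an unadjusted p below 0.05 in the direction of higher levels, against 7.54% of all tested genes, and 0 passed the adjusted threshold, with a lowest adjusted p of 0.0804 in limma. JunB dep replicate 2 was below control replicates 0 and 2 in all 43 members, so leaving it out removes their low values. The members were high and low in the same libraries, so these 37 are not separate results. The 235 genes called lower over the whole table became 251 without JunB dep replicate 2, 120 (beside 11 called higher) without the library labelled JunB dep replicate 0, and 0 when each of the other 4 libraries was left out in turn.

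Cyclin E and its partners open the cycle. Ccne1, cyclin E1, was at 2.87, 0.911 and 2.30 FPKM in the controls and 10.9, 5.38 and 1.38 FPKM in JunB dep, the widest range within that group. Its mean was 2.03 ± 1.01 FPKM in the controls and 5.89 ± 4.78 FPKM in JunB dep (SD, n = 3 libraries each), a log2 fold change of 1.08 with a standard error of 0.71. Ccne2, cyclin E2, was among the lowest members, at 0.753, 0.422 and 0.958 FPKM in the controls and 2.46, 1.65 and 0.395 FPKM in JunB dep. For both cyclin E genes the library labelled JunB dep replicate 0 was the highest of the 6, and JunB dep replicate 1 the second.

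Cyclin A, the B cyclins and Cdk1 form the kinase that carries the cell through S phase into mitosis. Cdk1 (mm9, chromosome 10, start 68799383, end 68815686) had the largest log2 fold change of the 43, 1.22 with a standard error of 0.67. It was at 8.16, 3.16 and 8.88 FPKM in the controls and 24.4, 24.4 and 5.54 FPKM in JunB dep, so the libraries labelled JunB dep replicates 0 and 1 were at the same level and the third lay inside the control range. Ccnb1 (mm9, chromosome 13, start 101548605, end 101556525) was at 9.40, 3.51 and 12.8 FPKM in the controls and 30.7, 29.5 and 5.26 FPKM in JunB dep. Both are among the 5 printed mitosis genes with CHR letters near a CCAAT box. Ccna2 was at 15.4, 7.91 and 14.97 FPKM in the controls and 25.2, 38.6 and 9.28 FPKM in JunB dep. Ccnb2 was at 11.7, 5.32 and 11.3 FPKM in the controls and 21.3, 32.4 and 5.66 FPKM in JunB dep. For these 2 cyclins JunB dep replicate 1 was the highest library and was 1.53-fold above the library labelled JunB dep replicate 0. Ccna2 overlaps Exosc9 on the opposite strand.

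The transcription regulators in the list showed unequal ranges. E2f1, an activator of replication genes, had the smallest difference of the members, with 5.08, 3.31 and 4.73 FPKM in the controls, 5.75, 9.35 and 3.60 FPKM in JunB dep and 0.39 as its log2 fold change (standard error 0.37). Foxm1, an activator of mitosis genes, was at 4.27, 1.29 and 6.01 FPKM in the controls and 8.31, 15.04 and 3.38 FPKM in JunB dep, with a log2 fold change of 1.09 (standard error 0.68). The highest library exceeded the lowest 2.82-fold for E2f1 and 11.7-fold for Foxm1.

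Origins of replication are licensed by Cdc6 and Cdt1, which load the MCM ring. Cdc6 was at 1.79, 0.447 and 1.30 FPKM in the controls and 2.30, 3.16 and 0.970 FPKM in JunB dep. Cdt1 was at 5.17, 3.36 and 5.02 FPKM in the controls and 11.9, 13.01 and 3.93 FPKM in JunB dep. The 6 MCM genes, which encode the subunits of the replicative helicase, all had the libraries labelled JunB dep replicates 0 and 1 above every control. Mcm5 (mm9, chromosome 8, start 77633427, end 77652338) had the largest difference of the ring, 1.09 on the log2 scale with a standard error of 0.72. Mcm5 was at 7.48, 3.22 and 10.5 FPKM in the controls and 22.6, 25.1 and 4.79 FPKM in JunB dep. Mcm6 had the smallest, 0.64 (standard error 0.39), at 14.1, 10.9 and 15.9 FPKM in the controls and 24.5, 32.7 and 11.9 FPKM in JunB dep. The other MCM genes lay between them, and Mcm3 and Mcm4 were higher in the library labelled JunB dep replicate 0 while Mcm2 and Mcm7 were higher in JunB dep replicate 1.

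Mcm2 was at 7.78, 3.39 and 10.1 FPKM in the controls and 17.3, 19.7 and 4.82 FPKM in JunB dep. Mcm3 was at 7.95, 4.68 and 8.98 FPKM in the controls and 24.6, 21.5 and 5.91 FPKM in JunB dep. Mcm4 was at 8.03, 6.29 and 9.72 FPKM in the controls and 22.0, 17.4 and 7.02 FPKM in JunB dep. Mcm7, which hosts the microRNAs Mir25, Mir93 and Mir106b and overlaps Cops6 and Ap4m1 on the other strand, was at 18.4, 14.9 and 20.4 FPKM in the controls and 31.1, 47.3 and 16.5 FPKM in JunB dep. The partners of the ring in the active helicase were highest in JunB dep replicate 1. Cdc45, which joins the ring when it fires, was at 5.15, 3.68 and 6.44 FPKM in the controls and 9.01, 10.9 and 3.81 FPKM in JunB dep. Gins2, of the GINS complex that joins with it, was the steadiest member among the controls, at 5.70, 6.06 and 6.70 FPKM, with 9.73, 14.1 and 5.48 FPKM in JunB dep.

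The genes of the fork held both the narrowest and the widest range of the set. Pcna, the clamp that holds DNA polymerase on its template, had the highest level of all members, at 65.7, 60.7 and 72.8 FPKM in the controls and 109, 123 and 56.5 FPKM in JunB dep. It also had the narrowest range, 2.18-fold over the 6 libraries. The annotation names pseudogenes of Pcna and of Ccnb2, and reads with up to 20 places in the genome were kept, so these values may hold reads of such copies. Uhrf1 (mm9, chromosome 17, start 56442744, end 56462909), which keeps DNA methylation through replication, had the widest range, 13.8-fold. It was at 7.36, 2.59 and 13.5 FPKM in the controls and 16.5, 35.8 and 4.77 FPKM in JunB dep, with a log2 fold change of 1.08 and the largest standard error, 0.85.

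Ribonucleotide reductase makes the DNA building blocks, and its subunit genes Rrm1 and Rrm2 were both highest in the library labelled JunB dep replicate 0. Rrm1 was at 15.5, 10.3 and 16.1 FPKM in the controls and 30.9, 26.9 and 9.94 FPKM in JunB dep. Rrm2 was at 19.8, 7.00 and 16.1 FPKM in the controls and 42.3, 34.5 and 8.30 FPKM in JunB dep. Thymidylate synthase, Tyms, was at 3.46, 2.10 and 4.01 FPKM in the controls and 6.77, 8.10 and 2.64 FPKM in JunB dep. Thymidine kinase, Tk1, was at 12.4, 6.89 and 15.2 FPKM in the controls and 32.8, 41.5 and 8.09 FPKM in JunB dep. The thymidine genes were highest in JunB dep replicate 1 instead. The differences were 0.55, 0.79, 0.69 and 1.00 on the log2 scale for Rrm1, Rrm2, Tyms and Tk1.

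Mki67, the gene of the proliferation antigen Ki-67, and Top2a, the topoisomerase that untangles sister chromosomes, are the usual labels of dividing cells. Mki67 was at 9.45, 2.74 and 9.06 FPKM in the controls and 16.96, 24.8 and 4.39 FPKM in JunB dep. The mean was 7.08 ± 3.77 FPKM in the controls and 15.4 ± 10.3 FPKM in JunB dep (SD, n = 3 libraries each), and the log2 fold change was 0.94 with a standard error of 0.74. Top2a (mm9, chromosome 11, start 98854257, end 98885503) was at 10.4, 4.19 and 12.7 FPKM in the controls and 27.4, 33.7 and 7.28 FPKM in JunB dep, with a log2 fold change of 1.15 and a standard error of 0.67. Each had 2 JunB dep libraries above all controls and 1 among them.

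**Figure D3:**
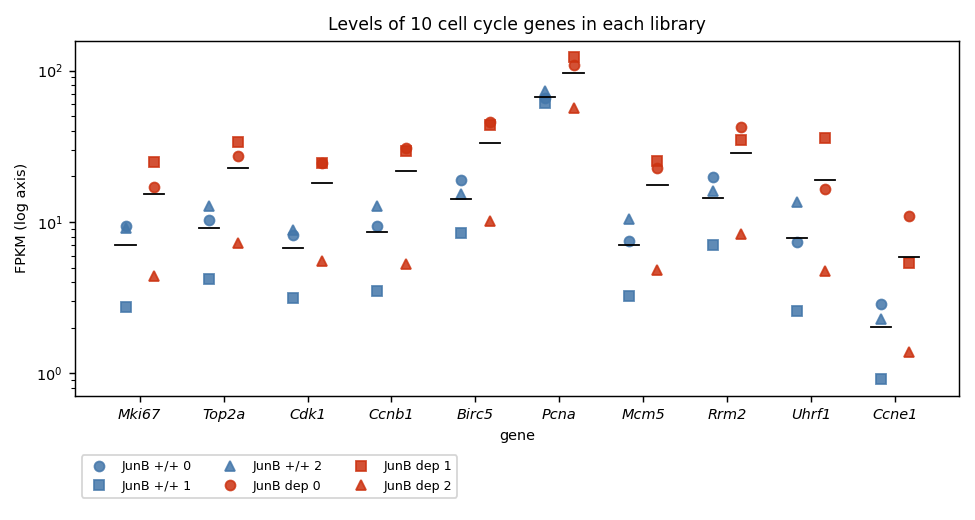
FPKM on a log axis of 10 of the genes in each library, blue for JunB +/+ and red for JunB dep, with the shape of the point giving the replicate number and a black line at the group mean. In each gene the red circle and the red square lie above the 3 blue points, while the red triangle, JunB dep replicate 2, lies among them or, for Pcna, below them.

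Kinases of mitosis and of its checkpoint were highest in JunB dep replicate 1, whereas Birc5, which is no kinase but acts with Aurkb, was highest in the library labelled JunB dep replicate 0. Plk1, which drives entry into mitosis, was at 6.31, 2.35 and 8.15 FPKM in the controls and 14.98, 19.3 and 2.98 FPKM in JunB dep. Aurkb, the kinase of the chromosomal passenger complex, was at 6.97, 2.66 and 8.99 FPKM in the controls and 15.1, 23.0 and 4.44 FPKM in JunB dep. Birc5, survivin, of the same complex, was at 18.9, 8.41 and 15.2 FPKM in the controls and 45.4, 43.9 and 10.2 FPKM in JunB dep. Aurka, the centrosome kinase, had a smaller range, at 7.55, 4.13 and 7.30 FPKM in the controls and 12.8, 14.5 and 4.57 FPKM in JunB dep. Bub1 and Bub1b act in the spindle checkpoint, which holds anaphase until every chromosome is attached. Bub1 was at 1.28, 0.384 and 1.82 FPKM in the controls and 4.27, 4.96 and 0.832 FPKM in JunB dep, a range of 12.9-fold, the widest of the mitosis genes. Bub1b was at 4.88, 1.77 and 6.22 FPKM in the controls and 11.6, 14.8 and 3.02 FPKM in JunB dep. The log2 fold changes of these 6 genes ran from 0.60 for Aurka to 1.08 for Bub1.

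Kinetochore genes varied alike at unlike levels. Cenpa, the histone that marks the centromere, was at 14.6, 9.15 and 15.1 FPKM in the controls and 29.8, 42.2 and 10.7 FPKM in JunB dep. Cenpe, a kinetochore motor, was at 1.31, 0.540 and 1.49 FPKM in the controls and 3.10, 4.54 and 0.782 FPKM in JunB dep. Cenpf was at 1.52, 0.786 and 1.81 FPKM in the controls and 2.18, 4.58 and 0.992 FPKM in JunB dep. Cenpf had the smallest log2 fold change of the mitosis genes, 0.59 with a standard error of 0.50, and its value in the library labelled JunB dep replicate 0 was only 1.20-fold above the highest control.

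The spindle and the cleavage furrow are built by motors and bundling proteins. Kif11, the motor that separates the spindle poles, was at 3.78, 1.65 and 5.18 FPKM in the controls and 9.96, 12.5 and 2.44 FPKM in JunB dep. Tpx2, which seeds spindle microtubules, was at 5.29, 2.31 and 6.02 FPKM in the controls and 13.1, 15.1 and 3.10 FPKM in JunB dep. Nusap1, which binds and bundles microtubules, was at 6.97, 2.5 and 6.10 FPKM in the controls and 9.40, 14.2 and 3.67 FPKM in JunB dep. Prc1, Kif23 and Kif20a act at the midzone and in cytokinesis, and in each of them JunB dep replicate 1 was the highest library and control replicate 1 the lowest. Prc1 was at 12.1, 6.08 and 11.4 FPKM in the controls and 20.02, 22.7 and 7.53 FPKM in JunB dep. Kif23 was at 5.64, 2.65 and 5.95 FPKM in the controls and 8.80, 13.5 and 4.36 FPKM in JunB dep. Kif20a was at 3.31, 1.21 and 4.98 FPKM in the controls and 7.54, 10.4 and 1.66 FPKM in JunB dep. The log2 fold changes of the 6 genes ran from 0.65 for Prc1 to 0.98 for Kif11.

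Exit from mitosis runs through the APC/C. Cdc20, its activator, was at 14.1, 8.97 and 16.5 FPKM in the controls and 44.7, 41.8 and 9.37 FPKM in JunB dep, with a log2 fold change of 1.00 (standard error 0.63). Ube2c, the enzyme that supplies it with ubiquitin, had the highest level among the mitosis genes, at 26.7, 12.3 and 22.6 FPKM in the controls and 49.1, 69.7 and 17.3 FPKM in JunB dep. Its log2 fold change was 0.98 (standard error 0.56). Ube2c overlaps the muscle gene Tnnc2 and Cdc20 overlaps Elovl1, in both cases on the opposite strand. In all, 13 of the 43 members overlap an annotated gene of the opposite strand and 28 overlap none. The libraries keep strand, but whether strand was used when fragments were assigned to genes is not stated in the sources used here.

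By role in the cycle, mitosis genes had the wider range. The highest library exceeded the lowest by a median of 7.06-fold over the 24 mitosis genes and 3.87-fold over the 19 replication genes, and the median log2 fold change was 0.94 and 0.69. As medians by library against the control mean, the replication genes were at 0.17, -0.39 and 0.28 in the controls and 1.28, 1.26 and -0.23 in JunB dep. The mitosis genes were at 0.30, -0.77 and 0.41 in the controls and 1.33, 1.76 and -0.33 in JunB dep. The assignment of genes to these roles was made after the values were known, and the difference between them was not tested.

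The 2 libraries with high levels were not alike in every gene. JunB dep replicate 1 was higher than the library labelled JunB dep replicate 0 in 33 of the 43 members, 20 of the 24 mitosis genes and 13 of the 19 replication genes, against 51.3% of all tested genes. The library labelled JunB dep replicate 0 was higher by 2.03-fold for Ccne1, 1.49-fold for Ccne2, 1.26-fold for Mcm4 and 1.23-fold for Rrm2, all genes of the replication group. JunB dep replicate 1 was higher by 2.17-fold for Uhrf1, 2.09-fold for Cenpf, 1.81-fold for Foxm1 and 1.63-fold for E2f1. These are single libraries, so no test of the difference can be made.

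**Figure D4:**
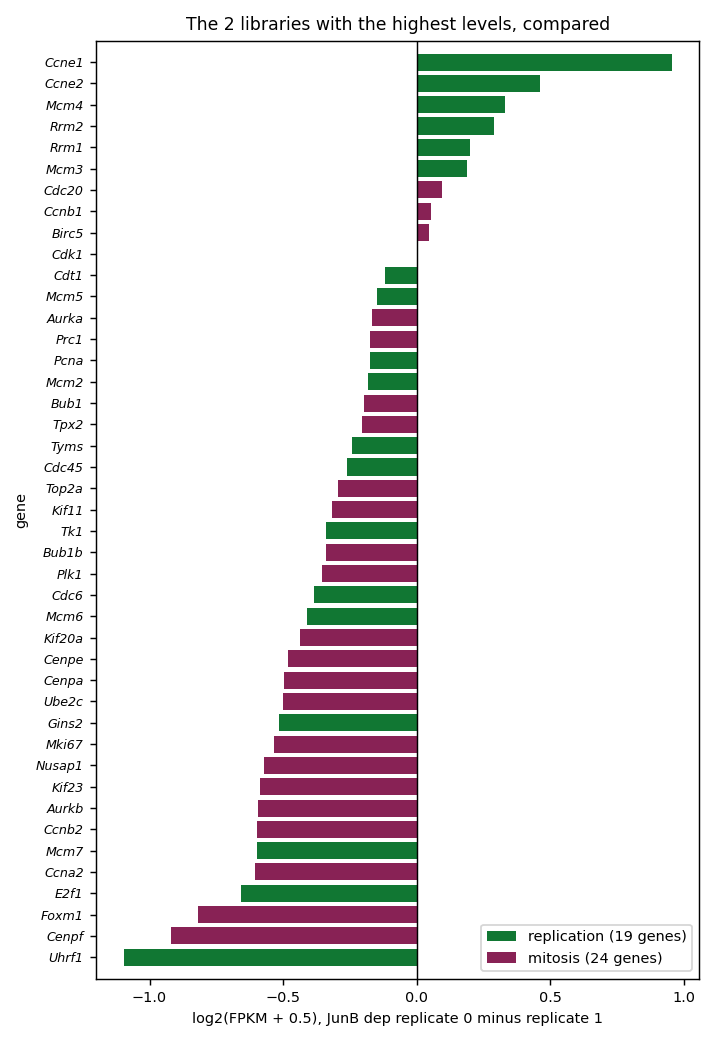
Difference in log2(FPKM + 0.5) between the libraries labelled JunB dep replicate 0 and JunB dep replicate 1 for each of the 43 genes, green for replication and purple for mitosis genes. Bars to the right are higher in replicate 0 and bars to the left higher in replicate 1. Ccne1 and Uhrf1 stand at the ends, at 0.96 and -1.10, and 33 bars point to the left.

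Most genes of a further cell cycle list also had the libraries labelled JunB dep replicates 0 and 1 above every control. The list was chosen with earlier results of these data known. Its 98 genes were 14 cyclins, CDKs, CDC25 phosphatases, Cks proteins and kinases that restrain Cdk1, 11 factors of the Rb, E2F and MuvB families, 7 CDK inhibitors, 25 further replication genes and 41 further mitosis genes. All 98 passed the filter on low values, 0 had an adjusted p below 0.05 in limma, and 1, Pola2, was higher at an unadjusted p below 0.05, against 1.43% of all tested genes. In 7 of the 98 every JunB dep library was above every control, a share near the 5.62% of all tested genes. A positive log2 fold change was found for 92 of the 98, against 53.4% of all tested genes, and their median was 0.65 over the 98. Without JunB dep replicate 1 that median was 0.39 with 86 positive. Without JunB dep replicate 2 it was 1.06 with 90 positive. The libraries labelled JunB dep replicates 0 and 1 were both above every control in 80 of the 98, against 19.4% of all tested genes. The 80 were 24 of the 25 replication genes, 38 of the 41 mitosis genes, 10 of the 14 cyclins and their partners, 7 of the 11 factors and 1 of the 7 inhibitors. The 18 others were 6 of the CDK inhibitors, the D cyclins Ccnd1, Ccnd2 and Ccnd3, and Wee1, Rb1, Rbl2, E2f2, E2f3, Gins4, Ttk, Pttg1 and Cit. Without JunB dep replicate 2, 67 were higher and 1, Rbl2, was lower at an unadjusted p below 0.05, against 7.54% and 10.9% of all tested genes, and 0 passed the adjusted threshold, with a lowest adjusted p of 0.055. JunB dep replicate 2 was below control replicates 0 and 2 in 73 of the 98, so leaving it out removes low values here too. Pola2 and Rbl2 are named after their values were seen.

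The largest positive values were those of Mybl2, E2f7 and Ncaph. Mybl2, B-Myb, which with MuvB acts on CHR elements, was at 2.25, 0.670 and 3.44 FPKM in the controls and 10.3, 8.09 and 1.62 FPKM in JunB dep, with 1.32 as its log2 fold change (standard error 0.75, limma adjusted p = 0.722). E2f7, an E2F repressor made during S phase, was at 0.656, 0.180 and 1.08 FPKM in the controls and 4.45, 2.42 and 0.545 FPKM in JunB dep. Ncaph, a condensin subunit, was at 3.51, 1.61 and 4.95 FPKM in the controls and 11.1, 12.98 and 3.01 FPKM in JunB dep. The most negative values were those of Cdkn1c, Cdkn2c and Pttg1. Pttg1, securin, was at 54.8, 105 and 46.5 FPKM in the controls and 41.9, 32.3 and 57.0 FPKM in JunB dep, a log2 fold change of -0.59 (standard error 0.37).

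The D cyclins, which answer to growth signals, did not follow the order of the members. Ccnd1, cyclin D1, was at 21.4, 18.2 and 42.9 FPKM in the controls and 25.2, 72.8 and 23.1 FPKM in JunB dep, highest in JunB dep replicate 1 and control replicate 2. Its log2 fold change was 0.44 (standard error 0.54) and turned to -0.083 without JunB dep replicate 1. Ccnd2 was at 20.05, 13.02 and 25.4 FPKM in the controls and 7.27, 45.2 and 23.1 FPKM in JunB dep, lowest in the library labelled JunB dep replicate 0. Its log2 fold change of 0.07 (standard error 0.66) turned to -0.51 without JunB dep replicate 1 and was also below 0 without control replicate 1 or JunB dep replicate 2. Ccnd3 was at 35.6, 24.1 and 24.8 FPKM in the controls and 48.6, 25.8 and 40.4 FPKM in JunB dep.

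The CDK inhibitors are brakes of the cycle. Cdkn2a, which encodes p16 and is a known target of JunB in other cells, was low throughout, at 0.789, 0.0283 and 0.319 FPKM in the controls and 0.755, 0.213 and 0.154 FPKM in JunB dep, with a log2 fold change of 0.02 (standard error 0.41) that turned to -0.27 without the library labelled JunB dep replicate 0 and to -0.30 without control replicate 1. Cdkn1a, p21, had the highest level of the list, at 168, 180.2 and 159.8 FPKM in the controls and 202, 230.0 and 184 FPKM in JunB dep, and in it alone of the 7 was every JunB dep library above every control, with 0.27 as its log2 fold change (standard error 0.16, limma adjusted p = 0.722). Cdkn1b, p27, was at 29.6, 28.8 and 28.9 FPKM in the controls and 17.5, 33.2 and 24.8 FPKM in JunB dep.

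The inhibitors Cdkn1c and Cdkn2c were lowest in the library labelled JunB dep replicate 0. Cdkn1c, p57, was at 9.42, 11.6 and 11.6 FPKM in the controls and 2.01, 7.85 and 16.0 FPKM in JunB dep. Cdkn2c, p18, was at 36.2, 52.3 and 25.4 FPKM in the controls and 8.39, 32.3 and 42.7 FPKM in JunB dep. Without that library their log2 fold changes of -0.69 and -0.66 became 0.052 and 0.029. Cdkn2b, p15, was at 12.5, 13.4 and 8.46 FPKM in the controls and 17.5, 12.8 and 10.4 FPKM in JunB dep. Cdkn2d, p19, was at 0.834, 0.892 and 0.599 FPKM in the controls and 1.04, 0.714 and 0.715 FPKM in JunB dep. Of the 7 inhibitors, 0 had an adjusted p below 0.05 in limma. Wee1 and Pkmyt1, kinases that hold Cdk1 inactive until mitosis, were singled out after their values were seen. Wee1 was at 7.55, 9.56 and 10.6 FPKM in the controls and 6.16, 13.03 and 12.9 FPKM in JunB dep, lowest in the library labelled JunB dep replicate 0. Pkmyt1 was at 11.2, 11.6 and 10.6 FPKM in the controls and 13.3, 23.1 and 11.8 FPKM in JunB dep, with every JunB dep library above every control.

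Several tissue markers differed between the same libraries as the members. The 16 markers of the growing hair follicle, of which 0 passed the limma test, summed to 9.25, 12.2 and 4794 FPKM in the controls and to 387, 7888 and 126 FPKM in JunB dep. Only Krt73 in control replicate 0 and Krt85 in the library labelled JunB dep replicate 0 were at 0. Control replicate 2 held 518 times the follicle sum of control replicate 0 and 1.09 times its member sum, and JunB dep replicate 1 held 20.4 times the follicle sum of the library labelled JunB dep replicate 0 and 1.19 times its member sum. JunB dep replicate 1 and control replicate 2, both with high follicle sums, differed 1.65-fold in that sum and 2.30-fold in the member sum. Both sums were higher in the library labelled JunB dep replicate 0 than in control replicates 0 and 1, by 41.8-fold and 31.8-fold for the follicle and by 2.09-fold and 3.59-fold for the members. Both were also higher in JunB dep replicate 1 than in control replicate 1, by 648-fold for the follicle and 4.29-fold for the members. JunB dep replicate 2 had a higher follicle sum than control replicates 0 and 1. Its member sum, 289 FPKM, lay between theirs, 424 and 247 FPKM. In the library labelled JunB dep replicate 0, Tchh and the keratins of this list except Krt85 were above those controls. Msx2 was at 2.62 there against 2.18 and 2.55 FPKM, and Hoxc13 at 3.31 against 3.47 and 4.55 FPKM. Lef1 was at 1.19 against 0.427 and 1.42 FPKM, and Shh at 0.310 against 0.112 and 0.0994 FPKM.

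The 4 keratins known from hyperproliferative epidermis, Krt6a, Krt6b, Krt16 and Krt17, of which 0 passed the limma test, were like the members above every control in the libraries labelled JunB dep replicates 0 and 1 when summed. Their sums were 673, 907 and 788 FPKM in the controls and 4025, 1445 and 783 FPKM in JunB dep. Most of each sum was Krt17, at 626, 837 and 719 FPKM in the controls and 4025, 1319 and 713 FPKM in JunB dep, and the other 3 were listed at 0 in the library labelled JunB dep replicate 0, where the median of the 4 was -2.75 on the log2 scale against the control mean.

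The 7 basal keratinocyte markers, of which 0 passed the limma test, summed to 5448, 6574 and 3833 FPKM in the controls and to 4108, 3921 and 4360 FPKM in JunB dep, with Krt14 listed at 0 in the library labelled JunB dep replicate 0. By the median of the 7, as log2(FPKM + 0.5) minus the control mean, that library was the highest of the 6, at 0.47. In it Krt5, Trp63, Itga6 and Itgb4 were above every control. Krt15 and Col17a1 were below every control there, at 80.7 and 92.3 FPKM against at least 1117 and 188 FPKM.

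The 10 leukocyte markers present in the table, of which 0 passed, summed to 80.4, 62.5 and 47.6 FPKM in the controls and to 132, 26.5 and 56.5 FPKM in JunB dep, so that the 2 libraries with high member levels had the highest and the lowest sum. The sum in the library labelled JunB dep replicate 0 was raised by Csf3r, at 44.3 FPKM where no control exceeded 3.70 FPKM, by Itgam and by Ptprc, whereas Cd3e and Cd3g of T cells were below every control there. By the median of the 10 that library was at 0.066, below control replicate 0 at 0.37. The 5 markers of oral and mucosal epithelium summed to 3798 FPKM in the library labelled JunB dep replicate 0 and to at most 1.41 FPKM elsewhere, with Sprr3, Krt13 or Pax9 at 0 in 3 of those libraries. The 5 adipocyte markers, of which 0 passed, summed to 1573, 2779 and 988 FPKM in the controls and to 11.5, 1096 and 6696 FPKM in JunB dep, lowest in the library labelled JunB dep replicate 0 and highest in JunB dep replicate 2. The 6 fibroblast markers, of which 0 passed, summed to 2311, 717 and 1490 FPKM in the controls and to 1507, 608 and 708 FPKM in JunB dep. The 6 suprabasal markers, of which 0 passed, summed to 6262 to 15290.5 FPKM over the 6 libraries. Skeletal muscle markers summed to 19718, 25283 and 19381 FPKM in the controls and 1963, 1848 and 4436 FPKM in JunB dep. The part of hair cycle stage, epidermal state, mucosal epithelium, leukocytes, fat and muscle content in the levels of the members was not tested.

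**Figure D5:**
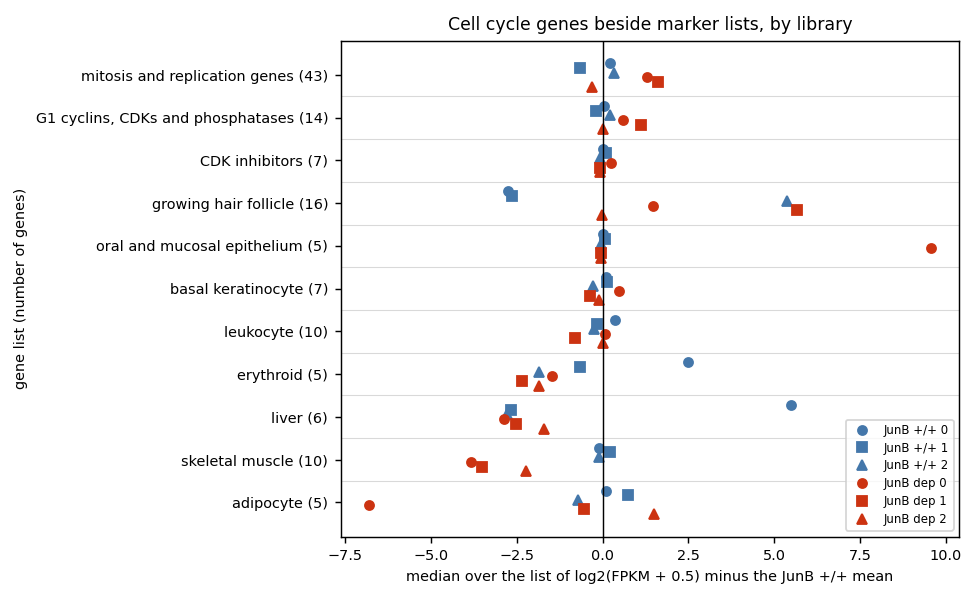
Median over each gene list of log2(FPKM + 0.5) minus the control mean, 1 point per library, blue for JunB +/+ and red for JunB dep, with the shape giving the replicate number and the number of genes in parentheses. The members are at 1.31 and 1.62 in JunB dep replicates 0 and 1, the hair follicle list at 5.36 in control replicate 2 and 5.67 in JunB dep replicate 1, and the mucosal list at 9.58 in JunB dep replicate 0.

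The sample names fall into 2 number series whose meaning is not stated in the sources used here, and each series holds both genotypes. Within the series of the library labelled JunB dep replicate 0 and control replicates 0 and 1, that library was above both controls in all 43 members, against 42.4% of all tested genes. Within the series of control replicate 2 and JunB dep replicates 1 and 2, JunB dep replicate 1 was above the control in all 43 members and JunB dep replicate 2 below it in all 43, against 52.5% and 48.1% of all tested genes. With the series as a block the median log2 fold change of the members was 0.88 and 0 members passed, with a lowest adjusted p of 0.575 in limma.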

How the data were processed

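The authors checked reads with FastQC, aligned them to mm9 with TopHat 2.0.10, Bowtie 1.0.0 and SAMtools 0.1.19, and deposited FPKM values per gene and mouse. Cufflinks is listed in the submitters' processing notes without a role, and nothing says whether libraries were rescaled. The authors tested counts with DESeq2, and those counts were not analysed here. Sequencing depth is unknown. Among genes below 0.15 FPKM, 14.2% to 17.4% shared 1 ratio with control replicate 0 (to 3 decimals on the log2 scale), which puts the scaling totals at 0.955 to 1.14 times that library.

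Values were compared as log2(FPKM + 0.5), a scale that shrinks changes of low genes. The test was limma 3.58.1 in R 4.3.3 (intensity trend, no block, two-sided), tested on simulated data beforehand, where it did not call changes close in size to those of the members at 3 libraries a group. Tables and figures used Python 3.11.15, pandas 2.3.3 and matplotlib 3.10.9. The members and all lists were chosen with earlier results of these data known. The roles and the spacing of promoter letters were set after values were seen, and the printed promoters were picked after their letters were seen. Named beside the members are Junb, marker genes, D cyclins, CDK inhibitors and, in each direction, the 3 further genes with the largest log2 fold change. Pola2, Rbl2, Wee1 and Pkmyt1 are also named, singled out after their values were seen. So are the further genes in which the libraries labelled JunB dep replicates 0 and 1 were not both above every control. Gene positions and overlaps are from GENCODE vM1 on mm9, and promoter windows from RefSeq on GRCm38.p6. The alternatives were pseudocounts of 0.1 and 1, no filter, a mean of at least 1 FPKM, an adjusted p of 0.1, each library left out, blocks for replicate number or sample name series, limma in its robust form or without the trend, and 3 rescalings, by quantiles, by median ratios or to a sum of 1000000.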

Additional observations from a re-analysis of the deposited data

How the results depend on the processing

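The positive sign of every member held in all 19 settings, with log2 fold changes from 0.07 to 1.92 and a lowest adjusted p of 0.0804, so 0 members were called under any of them. The count of 235 genes called over the whole table was 0 with the replicate block, which also left 0 members called and their median at 0.87, 0 with the block on the series in the sample names, 0 without the library labelled JunB dep replicate 0 and control replicate 0, and 0 to 251 with each library left out. The sign turned only for genes outside the members. Ccnd2 was -0.38 with the block on the series in the sample names and -0.51 to 0.77 with each library left out. With each library left out, Ccnd1 ran from -0.083 to 0.81, Cdkn1c from -1.31 to 0.052, Cdkn2a from -0.30 to 0.35, Cdkn2c from -1.11 to 0.029 and Cdkn2d from -0.063 to 0.12. Without that pair of libraries, Cdkn2c was 0.025 and Cdkn2d -0.027. The causes were not tested. The depth of the libraries is unknown, so no limit of detection is given. Replicate numbers were not shown to pair the samples, and 3 libraries per group cannot settle whether they do. Over all tested genes, deviations of the same-numbered control and JunB dep libraries from their group means correlated at 0.12, -0.23 and -0.43 for numbers 0, 1 and 2. No number had its highest correlation with its own partner in both groups.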
